A study of Rattus norvegicus with 6 samples.

Results

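The integrin subunit genes described here are the 10 genes Itga1, Itga3, Itga5, Itga6, Itga7, Itgav, Itgb1, Itgb3, Itgb4 and Itgb5, whose products bind laminin, collagen, fibronectin or vitronectin. They were followed through every probe set, the group of short oligonucleotides that measures 1 transcript, whose annotation gave one of these symbols alone. This found 28 of the 39898 probe sets on the arrays, 8 on the U34A type and 20 on the RAE2.0 type. Of the 10 genes, 6 were on both array types (Itga1, Itga7, Itgav, Itgb1, Itgb3 and Itgb4) and the other 4 on RAE2.0 only (Itga3, Itga5, Itga6 and Itgb5).

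Integrins are cell surface receptors made of 1 alpha and 1 beta chain that tie the extracellular matrix to the actin cytoskeleton. The pairing sets the ligand: the beta 1 chain joins many alpha chains, of which alpha 1 binds collagen and laminin, alpha 3, alpha 6 and alpha 7 bind laminin, and alpha 5 binds fibronectin. The alpha v chain joins beta 1, beta 3 or beta 5 to bind vitronectin, fibronectin and other proteins with the same short recognition motif. The beta 4 chain pairs with alpha 6 alone and anchors epithelial cells and Schwann cells to laminin in the basement membrane.

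Total RNA came from 3 populations of cultured olfactory ensheathing cells (OECs), the glia that wrap olfactory axons, all started from the olfactory nerve layer of the olfactory bulbs of Wistar rats. TEG3 is 1 clonal line, made from rats at postnatal day 60 by transfection with SV40 large T antigen; its number of doublings is not given. OEC Lp is a primary culture from rats at postnatal day 21 that was passaged for over 50 population doublings, and OEC Ep is the same kind of culture after 1 week and less than 3 doublings. All were grown in DMEM with 3% serum, 20 µg/ml bovine pituitary extract and 2 µM forskolin, and the labels state an OEC purity over 90% for the primary cultures, for OEC Lp before its passaging. Per the design text, 2 RNA pools were made per population, each from 3 cultures, but the labels do not say which pool went on which array. Each population was on 1 U34A and 1 RAE2.0 array, so each gene on both types has 2 arrays per population, and the p-values may measure technical spread only.

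Signals are given in arbitrary units on a linear scale. Values under the 40th percentile of an array type, 129 on U34A and 168 on RAE2.0, were raised to this floor, so a fitted fold of a gene with raised values depends on the floor and is no bound. A fold on 1 array type against a population at the floor is written "at least". The share of probe sets above the floor lay between 59.1 and 61.5% for the U34A arrays and between 59.1 and 61.8% for the RAE2.0 arrays, and the 3' to 5' ratio of GAPDH probe sets, which follows RNA integrity, was 1.54 in TEG3, 1.52 in OEC Lp and 1.96 in OEC Ep on U34A, and 0.981 to 1.02 on RAE2.0. Of the OEC and Schwann cell markers above the floor in at least 1 population, TEG3 had 7 of 9 above it on U34A and 2 of 10 on RAE2.0, OEC Lp 5 of 9 and 1 of 10, and OEC Ep all 9 and all 10. Markers above it in OEC Ep alone entered these counts through OEC Ep. S100b, Ngfr and Gfap were at the floor in TEG3 and in OEC Lp on RAE2.0, and Sox10 in OEC Lp on both types, so these markers go against the OEC label of both long-term populations on RAE2.0. The signals of all markers in this list summed there to 1912 in TEG3, 1686 in OEC Lp and 89033 in OEC Ep. On U34A the sums were 5850, 5437 and 34564 in the same order. Ngfr was above the floor in every population on U34A, with 3621 in TEG3, 2569 in OEC Lp and 12716 in OEC Ep. Of the 28 integrin probe sets 26 were above the floor in at least 1 population; the 2 that were not, 1 for Itga7 and 1 for Itgb5 on RAE2.0, were left out.

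**Figure D1:**
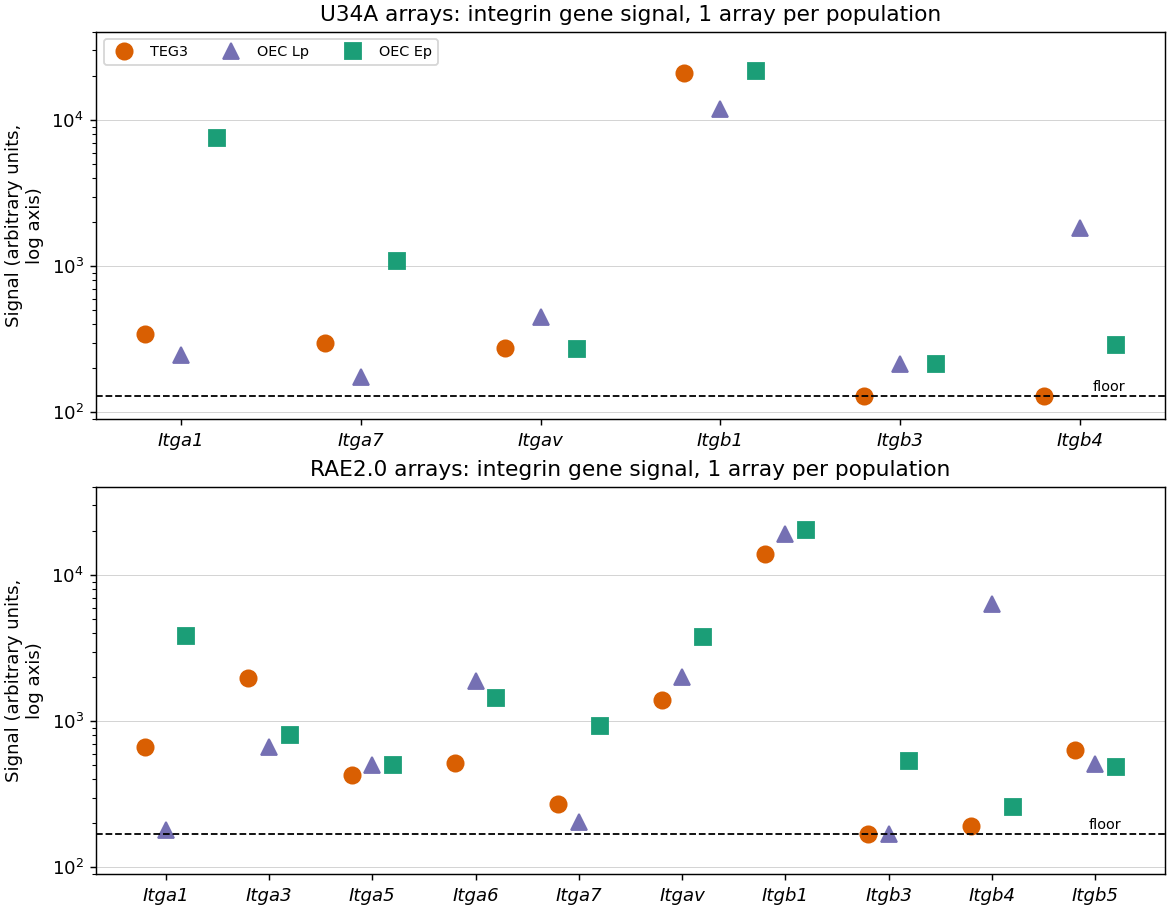
Signal of the integrin genes on the U34A arrays (top, 6 genes) and the RAE2.0 arrays (bottom, 10 genes) in arbitrary units on a log axis, with TEG3 as circles, OEC Lp as triangles, OEC Ep as squares and the floor as a dashed line. Each point is 1 array. Itga1 and Itga7 stand highest in OEC Ep and Itgb4 in OEC Lp on both types.

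The alpha 1 chain, a collagen and laminin receptor subunit, fell in both long-term populations against OEC Ep. On U34A the Itga1 signal was 346 in TEG3, 247 in OEC Lp and 7539 in OEC Ep. On RAE2.0 it was 662 in TEG3, 179 in OEC Lp and 3803 in OEC Ep. OEC Ep was the high population on both types, with 1 array per population and type. OEC Lp had a 25.5-fold lower signal than OEC Ep (log2 fold -4.67 ± 0.51 SE, limma adjusted p = 0.0101). TEG3 had an 11.2-fold lower signal than OEC Ep (log2 fold -3.48 ± 0.51 SE, limma adjusted p = 0.0262). TEG3 stood above OEC Lp on both types, 1.40-fold on U34A and 3.70-fold on RAE2.0, but this difference did not pass (log2 fold 1.19 ± 0.51 SE, limma adjusted p = 0.348). In a bulk sample, fewer cells of a type and less RNA per cell cannot be told apart.

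Like Itga1, the marker lists of OECs and Schwann cells, microglia, fibroblasts, smooth muscle and neurons had their highest sums in OEC Ep on both types. Not every gene in these lists did. The summed signal of microglia and macrophage markers was 1193 in TEG3, 1117 in OEC Lp and 26106 in OEC Ep over 7 genes on U34A, and 2260, 2437 and 60652 in the same order over 13 genes on RAE2.0. Of the 13, 4 were above the floor in TEG3, 2 in OEC Lp and all 13 in OEC Ep. Only markers above the floor in at least 1 population were counted, so those above it in OEC Ep alone entered through OEC Ep. On U34A, Cx3cr1 was at the floor in OEC Ep. Aif1, C1qb and Ctss were at the floor in TEG3 and in OEC Lp on both types. Markers of smooth muscle and pericytes, cells that also make the alpha 1 and alpha 7 chains, summed to 5403 in TEG3, 9061 in OEC Lp and 12630 in OEC Ep over 5 genes on U34A. On RAE2.0 their sums were 11275, 2843 and 20593 over 6 genes, with Cnn1 at the floor in TEG3 and OEC Lp on both types. In the same order, Des had 249, 307 and 264 on RAE2.0, and Pdgfrb 257, 1415 and 371. Neuron markers summed to 581 in TEG3, 539 in OEC Lp and 17987 in OEC Ep over 4 genes on U34A, and to 1179, 752 and 31091 over 4 genes on RAE2.0, with Nefm at the floor in TEG3 and OEC Lp on both types. In the same order, Tubb3 had 588, 168 and 666 on RAE2.0, and Snap25 194, 134 and 210 on U34A. Fibroblast and meningeal markers summed to 40124 in TEG3, 58993 in OEC Lp and 62385 in OEC Ep on U34A, and to 38227, 99167 and 114422 on RAE2.0. Postn alone gave 56582 of the OEC Ep sum on RAE2.0. There Dcn, Prrx1 and Foxc1 were at the floor in OEC Ep and highest in OEC Lp, with 442, 714 and 2118. Pdgfra and Col3a1 were also highest in OEC Lp on RAE2.0, and Lum, Thy1, Postn, Col1a1, Fap and Aldh1a2 in OEC Ep. Endothelial markers were not highest in OEC Ep, with 907, 516 and 543 on U34A and 1449, 2350 and 1291 on RAE2.0 in the same order. The part of these cells in the Itga1 and Itga7 values was not tested.

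To show the regulatory sequence of Itga1 beside that of its partner chain, which passed in none of the comparisons, the 250 bases before the start of Itga1 and Itgb1 are given. They are from RefSeq on the GRCr8 build, chr2:48545284-48545533 on the minus strand for Itga1 and chr19:73602027-73602276 on the plus strand for Itgb1. Capitals mark the GC box GGGCGG or its complement on the other strand, a motif bound by Sp1 family factors.
Itga1: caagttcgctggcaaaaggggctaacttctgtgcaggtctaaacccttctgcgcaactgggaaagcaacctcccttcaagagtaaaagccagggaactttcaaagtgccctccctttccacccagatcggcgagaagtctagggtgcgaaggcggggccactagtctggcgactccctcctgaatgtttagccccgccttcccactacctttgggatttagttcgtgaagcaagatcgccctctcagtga
Itgb1: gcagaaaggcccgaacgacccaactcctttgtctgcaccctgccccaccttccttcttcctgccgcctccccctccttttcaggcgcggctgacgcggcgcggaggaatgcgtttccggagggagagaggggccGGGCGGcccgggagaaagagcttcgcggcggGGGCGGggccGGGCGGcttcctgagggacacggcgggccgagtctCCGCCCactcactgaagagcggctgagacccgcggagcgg
The Itgb1 window held 4 GC boxes and 28 CpG dinucleotides, and the Itga1 window 0 and 10, against a median of 5 CpG in all promoters of the table. A GC box on either strand is present in 30.5% of all 33469 promoters over the same length. A TATAAA box (12.9% of promoters) was in neither window, TGANTCA, an AP-1 site (6.34%), was in neither, and the Sox site ACAAAG (16.3%) was in that of Itgb1 alone. Promoters of 6 of the 10 genes were in the table, and Itga7, Itgb4, Itga6 and Itgb3 had none there. These matches describe letters in a window and not binding.

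The alpha 7 chain, the laminin receptor of muscle that is also made by Schwann cells, fell in the same direction. Its mean signal over 3 probe sets on U34A was 298 in TEG3, 174 in OEC Lp and 1084 in OEC Ep. Over the 2 probe sets above the floor on RAE2.0 it was 272 in TEG3, 204 in OEC Lp and 928 in OEC Ep. OEC Ep was again the high population on each type. With values under the floor raised to it, OEC Lp was 5.33-fold lower than OEC Ep (log2 fold -2.42 ± 0.307 SE, limma adjusted p = 0.0152), and TEG3 3.52-fold lower than OEC Ep (log2 fold -1.82 ± 0.307 SE, limma adjusted p = 0.0385). TEG3 against OEC Lp had a log2 fold of 0.60 (limma adjusted p = 0.436). The 2 probe sets above the floor in every population, 1 on each type, were 4.32-fold and 4.89-fold lower in OEC Lp and 4.03-fold and 3.93-fold lower in TEG3 than in OEC Ep. The others differed in size: X65036_at had signals of 608 in TEG3, 30 in OEC Lp and 4735 in OEC Ep. X74293_s_at, by contrast, had 53 in TEG3, 17 in OEC Lp and 198 in OEC Ep, so only its OEC Ep value was above the floor. The brightest probe set of each type alone gave a log2 fold relative to OEC Ep of -2.47 in TEG3 (limma adjusted p = 0.111) and of -3.74 in OEC Lp (limma adjusted p = 0.0321).

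**Figure D2:**
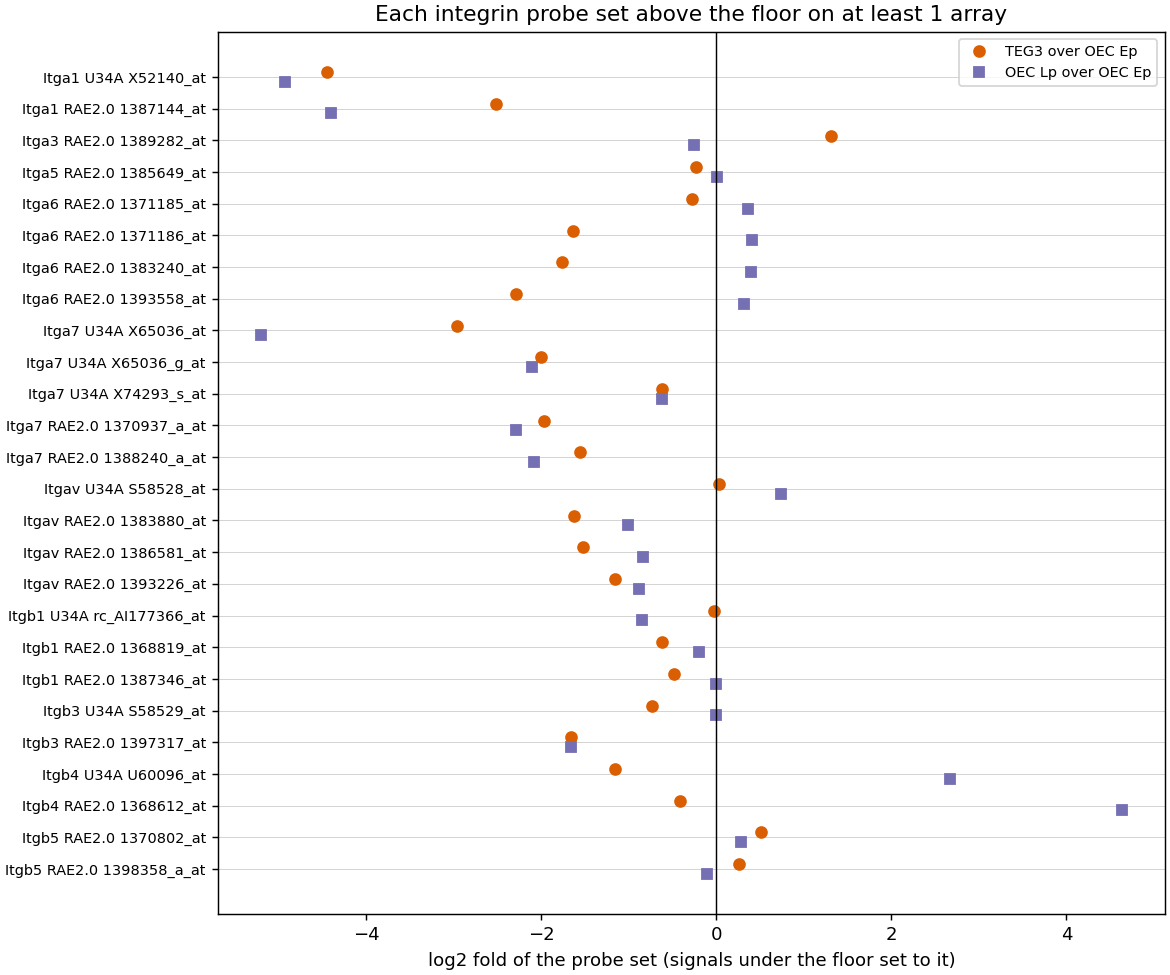
The log2 fold of each of the 26 integrin probe sets above the floor on at least 1 array, with TEG3 over OEC Ep as circles and OEC Lp over OEC Ep as squares, 1 array per population and type. All 5 Itga7 probe sets shown lie left of 0 in both comparisons. X74293_s_at was above the floor in OEC Ep alone, so its side was fixed by the filter and the floor. The 4 Itga6 probe sets lie left of 0 in TEG3 and right of it in OEC Lp.

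The beta 4 chain went the other way in OEC Lp. The Itgb4 signal on U34A was 13 in TEG3, which is under the floor, 1828 in OEC Lp and 288 in OEC Ep. On RAE2.0 it was 192 in TEG3, 6351 in OEC Lp and 257 in OEC Ep. OEC Lp was the high population on both types, with TEG3 at or near the floor and OEC Ep not far above it. Itgb4 rose 12.5-fold in OEC Lp against OEC Ep (log2 fold 3.65 ± 0.508 SE, limma adjusted p = 0.0182), by 6.35-fold on U34A and 24.7-fold on RAE2.0. In TEG3 it was at least 14.2-fold lower than in OEC Lp on U34A and 33.1-fold lower on RAE2.0 (fitted log2 fold -4.44 ± 0.508 SE, limma adjusted p = 0.0361), and TEG3 against OEC Ep did not pass (log2 fold -0.79 ± 0.508 SE, limma adjusted p = 0.423). Markers of keratinocytes and other epithelium, where beta 4 is abundant, summed to 429 in TEG3, 474 in OEC Lp and 545 in OEC Ep over 3 genes on U34A, and to 1010, 2104 and 878 over 5 genes on RAE2.0. There Epcam was at the floor in OEC Lp, and Krt5, Krt14 and Cdh1 were above it only in OEC Lp. Their signals in OEC Lp were 241 and 291, near the floor of 168, and 1071. On U34A, Krt14 was instead highest in OEC Ep, with 129, the floor, in TEG3, 139 in OEC Lp and 237 in OEC Ep. The part of epithelial cells in the Itgb4 values was not tested.

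The alpha 6 chain, the partner of beta 4 and also of beta 1, was measured on RAE2.0 only, where 1 array per population gives no test. Its mean signal over 4 probe sets was 516 in TEG3, 1881 in OEC Lp and 1453 in OEC Ep. OEC Lp was thus 1.29-fold above OEC Ep, while TEG3 was 2.81-fold below OEC Ep and 3.64-fold below OEC Lp. The probe set with the highest signal had 1744 in TEG3, 7792 in OEC Lp and 5920 in OEC Ep, and all 4 had the same order, with folds of TEG3 under OEC Ep from 1.21 to 4.88. In OEC Lp the higher Itgb4 signal therefore stood beside an Itga6 signal within 2-fold of that of OEC Ep, and in TEG3 both genes were lower than in OEC Lp.

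The alpha 3 chain, another laminin receptor subunit, had a different order on its 1 RAE2.0 probe set. Its signal was 1981 in TEG3, 668 in OEC Lp and 800 in OEC Ep. TEG3 was the high population, 2.48-fold above OEC Ep and 2.97-fold above OEC Lp. The alpha 5 chain of the fibronectin receptor had signals of 428 in TEG3, 505 in OEC Lp and 503 in OEC Ep, and no pair of populations was apart by 2-fold. The beta 5 chain, which pairs with alpha v to bind vitronectin, had mean signals of 633 in TEG3, 513 in OEC Lp and 483 in OEC Ep over 2 probe sets. These differences, too, were under 2-fold.

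The beta 1 chain, the common partner of alpha 1, 3, 5, 6, 7 and v, passed in none of the comparisons. Its signal on U34A was 21138 in TEG3, 11991 in OEC Lp and 21603 in OEC Ep. On RAE2.0 the mean of 2 probe sets was 13958 in TEG3, 19024 in OEC Lp and 20413 in OEC Ep. The low population differed between the types, OEC Lp on U34A and TEG3 on RAE2.0. The log2 fold was -0.48 ± 0.395 SE for OEC Lp against OEC Ep (limma adjusted p = 0.574). It was -0.29 in TEG3 relative to OEC Ep (limma adjusted p = 0.73) and 0.19 in TEG3 relative to OEC Lp (limma adjusted p = 0.883). Such values do not show that the populations are alike, and each of the 3 signs turned when certain single arrays were left out.

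The alpha v chain gave opposite directions on the array types. On U34A, with 1 probe set, the Itgav signal was 275 in TEG3, 451 in OEC Lp and 270 in OEC Ep. On RAE2.0 the mean of 3 probe sets was 1392 in TEG3, 2005 in OEC Lp and 3775 in OEC Ep, and each of the 3 had this order. OEC Lp was therefore 1.67-fold above OEC Ep on U34A and 1.88-fold below it on RAE2.0, with a log2 fold over both types of -0.09 ± 0.479 SE (limma adjusted p = 0.947). TEG3 against OEC Ep had -0.71 (limma adjusted p = 0.447), from 0.03 on U34A and -1.44 on RAE2.0. The beta 3 chain, which joins alpha v in the vitronectin receptor, had signals of 63 in TEG3, 214 in OEC Lp and 215 in OEC Ep on U34A, and of 21 in TEG3, 45 in OEC Lp and 530 in OEC Ep on RAE2.0. TEG3 was under the floor on both types and OEC Lp on RAE2.0 only. Its log2 folds relative to OEC Ep, -1.20 in TEG3 and -0.83 in OEC Lp, did not pass (limma adjusted p = 0.212 and 0.397) and depend on the floor.

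**Figure D3:**
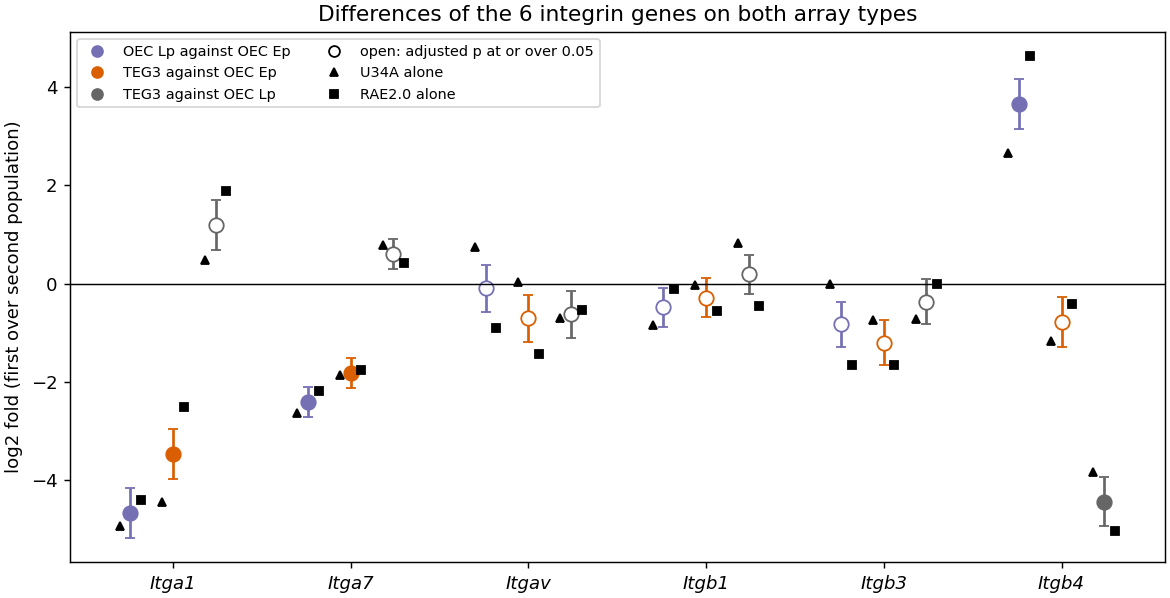
log2 fold of the 6 integrin genes on both array types for the 3 comparisons, as coloured circles with the limma SE (2 arrays per population), filled where the adjusted p was under 0.05. Triangles give U34A alone and squares RAE2.0 alone. Itga1 and Itga7 lie below 0 against OEC Ep in both long-term populations, Itgb4 lies far above 0 in OEC Lp alone, and the Itgav types lie on either side of 0 in OEC Lp against OEC Ep.

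Over the 6 genes on both types, OEC Lp against OEC Ep had 1 higher (Itgb4), 2 lower (Itga1 and Itga7) and 3 that did not pass, where 6.14% of all 3129 genes were called, 2.11% higher and 4.03% lower. Itga1 was the only 1 of the 3 still called when a TEG3 array was left out (limma adjusted p = 0.037, with 0.0735 for Itga7 and 0.0936 for Itgb4), where 38 of all 3129 genes were called. No member was called without an OEC Lp or an OEC Ep array of either type, and 0 of all genes were, with lowest member limma adjusted p-values of 0.126 to 0.254. TEG3 against OEC Ep had 0 higher and 2 lower, Itga1 and Itga7, against 4.51% of all genes called, 0.671% higher and 3.84% lower. TEG3 against OEC Lp had 1 lower, Itgb4, against 1.31% of all genes called, 0.192% higher and 1.12% lower, and without any 1 of the 6 arrays the last comparisons had 0 calls over all genes. The lowest member limma adjusted p-values were then 0.124 to 0.27 in TEG3 relative to OEC Ep and 0.17 to 0.352 relative to OEC Lp. The comparisons share populations, so their calls do not count as separate evidence. Median log2 folds of the 6 genes were -0.65, -0.99 and -0.09 in the same order, beside 0.11, 0.04 and -0.01 over all genes. Among the 4 genes on RAE2.0 only, 0 were 2-fold apart in OEC Lp against OEC Ep, where 10.1% of such genes were higher and 9.52% lower. In TEG3 against OEC Ep Itga3 was higher and Itga6 lower, where 12.6% of such genes were higher and 9.34% lower. The same held relative to OEC Lp, where 9.73% were higher and 8.02% lower.

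The genes whose pattern was most like that of the called members were found by the distance between log2 values over the 6 arrays, each type centred on its mean. For Itga1 these were Ctss, a cathepsin, at a distance of 1.42, Ctsc, another cathepsin, at 1.44, and C1qb, a complement subunit, at 1.46, against a median of 5.13 over all genes. Ctss and C1qb, both in the microglia and macrophage list, were at the floor in TEG3 and OEC Lp on both types. For Itga7 the nearest genes were Btg1 at 0.29, Igfbp3 at 0.56 and Star at 0.59, against a median of 2.80. For Itgb4 they were the aldo-keto reductase gene Akr1c14 at 0.87, the keratan sulfate proteoglycan gene Omd at 1.02 and the glypican gene Gpc3 at 1.14, against a median of 4.89. In OEC Lp against OEC Ep Akr1c14 had a log2 fold of 4.07 and Omd of 4.50, both called (limma adjusted p = 0.0127 and 0.018), and Gpc3 one of 3.64 that did not pass (limma adjusted p = 0.0858).

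Other integrin subunits had 4 genes on both types, Itga8, Itga2b, Itgae and Itgb7. Limma called 0 of them in any comparison, also with 0 at an unadjusted p under 0.05. Of all 3129 genes, 615 had such a p in OEC Lp against OEC Ep. In TEG3, 681 had one against OEC Ep and 482 against OEC Lp. On RAE2.0 only, 4 of 6 other integrin subunits were at least 2-fold lower both in OEC Lp and in TEG3 than in OEC Ep. Of all such genes, 9.52% were lower in OEC Lp and 9.34% in TEG3. These 4 were Itgb2, Itgal, Itgam and Itgax, which are leukocyte subunits, named after their values were seen. Itgad, another leukocyte subunit, was not lower, with 168, the floor, in TEG3 and OEC Ep and 229 in OEC Lp. Itgb2, the common beta chain of leukocyte integrins, had signals of 178 in TEG3, 168 in OEC Lp and 3723 in OEC Ep. Itgal, an alpha chain of leukocytes, had 168 in TEG3, 190 in OEC Lp and 4944 in OEC Ep. Itgam and Itgax were at the floor in TEG3 and OEC Lp and had 836 and 1539 in OEC Ep. Both entered the count through OEC Ep alone, so their direction was fixed by the filter and the floor. Itga11, a collagen receptor subunit of fibroblasts that was likewise named after its values were seen, had 431 in TEG3, 168 in OEC Lp and 334 in OEC Ep.

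Laminins and basement membrane proteins, ligands of alpha 3, 6 and 7, had 4 genes on both types. Agrn, the proteoglycan agrin, was the 1 called: TEG3 had 242 on U34A and 1419 on RAE2.0, OEC Lp 1249 and 1646, and OEC Ep 4116 and 7298. It fell 9.36-fold in TEG3 against OEC Ep (limma adjusted p = 0.0408), and OEC Lp against OEC Ep did not pass (log2 fold -1.93, limma adjusted p = 0.131). Of all genes, 3.84% were called lower in TEG3 against OEC Ep. Lamc1, the laminin gamma 1 chain, had log2 folds of -1.57 in TEG3 and -1.20 in OEC Lp against OEC Ep (limma adjusted p = 0.0665 and 0.121). Of the 8 genes on RAE2.0 only, 5 were at least 2-fold lower and 1 higher in TEG3 than in OEC Ep, and 4 lower and 1 higher in OEC Lp. Of all such genes, 9.34% were lower and 12.6% higher in TEG3, and 9.52% lower and 10.1% higher in OEC Lp. The higher gene of the 8 was Lama5 in both, named after its values were seen, with 2681 in TEG3, 706 in OEC Lp and 171 in OEC Ep. Lama2, the laminin alpha 2 chain of muscle and nerve, chosen in the same way, had 168, the floor, in TEG3, 1670 in OEC Lp and 3643 in OEC Ep.

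Collagen ligands had 6 genes on both types, of which 1 was called in any comparison. This was a higher call in OEC Lp against OEC Ep, where 2.11% of all genes were called higher. Col3a1, the chain of type III collagen, had 7841 in TEG3, 39993 in OEC Lp and 6684 in OEC Ep on U34A, and rose 4.65-fold in OEC Lp against OEC Ep (limma adjusted p = 0.0224). In TEG3 it had a log2 fold of 0.20 against OEC Ep (limma adjusted p = 0.785). Col1a2, a chain of type I collagen, was 10.5-fold lower in TEG3 than in OEC Ep on U34A and at least 107-fold lower on RAE2.0, but did not pass (limma adjusted p = 0.056). Among ligands of alpha 5 and alpha v, Fn1, fibronectin, had a log2 fold of 1.25 in OEC Lp relative to OEC Ep that was not called (limma adjusted p = 0.0996). In TEG3 relative to OEC Lp it had -1.43, also not called (limma adjusted p = 0.12).

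Spp1, osteopontin, a ligand of alpha v integrins that macrophages also make, was 63.7-fold lower in TEG3 than in OEC Ep on U34A and at least 45.8-fold lower on RAE2.0 (limma adjusted p = 0.0162). In OEC Lp it had a log2 fold of -1.99 (limma adjusted p = 0.197). Postn, periostin, which binds alpha v integrins, had signals at the floor of 129 in TEG3 and OEC Lp and 14838 in OEC Ep on U34A. On RAE2.0 it had 168, the floor, in TEG3, 394 in OEC Lp and 56582 in OEC Ep. Against OEC Ep it fell at least 115-fold on U34A and at least 337-fold on RAE2.0 in TEG3 (limma adjusted p = 0.003), and at least 115-fold on U34A and 144-fold on RAE2.0 in OEC Lp (limma adjusted p = 0.00427). Tnc, tenascin C, was 25.9-fold lower in TEG3 and 17.0-fold lower in OEC Lp on RAE2.0 (limma adjusted p = 0.00988 and 0.00849 over both types). Fbln5, an elastic fibre protein, was, relative to OEC Ep, 5.02-fold lower in OEC Lp on U34A and at least 7.75-fold lower on RAE2.0 (limma adjusted p = 0.021). In this list of fibronectin, vitronectin and other ligands, 3 of 7 genes were lower and 0 higher in each of OEC Lp and TEG3 against OEC Ep, beside 4.03% and 3.84% of all genes called lower.

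Of 14 adaptor and focal adhesion genes on both types, 1 was higher and 2 lower in OEC Lp against OEC Ep, and 0 were called by limma in TEG3 against OEC Ep (5 at an unadjusted p under 0.05). Of all genes, 2.11% were called higher and 4.03% lower in OEC Lp, and 4.51% were called in TEG3. A limma unadjusted p under 0.05 in TEG3 against OEC Ep was reached by 681 of all 3129 genes. Fyn, a Src family kinase, had signals of 1173 in TEG3, 389 in OEC Lp and 3023 in OEC Ep on U34A, and fell 4.76-fold in OEC Lp (limma adjusted p = 0.0369). Tns3, which links beta chains to actin, fell 4.54-fold in OEC Lp (limma adjusted p = 0.0333). The gene that rose was Cav1, the caveolae protein, with a log2 fold of 4.08 in OEC Lp (limma adjusted p = 0.00941) and 1.53 in TEG3 (limma adjusted p = 0.124) against OEC Ep. On U34A Cav1 was at the floor of 129 in OEC Ep, so these fitted folds depend on the floor. Pxn, paxillin, a scaffold of focal adhesions, had signals of 2725 in TEG3, 3724 in OEC Lp and 4215 in OEC Ep on U34A and 2440, 10938 and 7045 in the same order on RAE2.0, and did not pass in TEG3 against OEC Lp (log2 fold -1.31, limma adjusted p = 0.27).

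The membrane partners called were Cd9, Cd81 and Cd82, which are tetraspanins, membrane proteins that associate with integrins. The other tetraspanins of the list on both types, Cd151 and Cd63, were called in none of the comparisons. Cd9 fell 3.83-fold in OEC Lp against OEC Ep (limma adjusted p = 0.0333), and in TEG3 it had a log2 fold of -1.72 (limma adjusted p = 0.0565). Sdc1, syndecan 1, a matrix receptor with heparan sulfate chains, was higher in TEG3 and OEC Lp than in OEC Ep on both types but did not pass (log2 fold 1.64 and 1.43, limma adjusted p = 0.0565 and 0.0746). Cd81 had 1074 in TEG3, 8984 in OEC Lp and 7774 in OEC Ep on U34A and 5972, 29220 and 28737 in the same order on RAE2.0. TEG3 was the low population on both types, and Cd81 fell 5.90-fold in TEG3 against OEC Ep (limma adjusted p = 0.0194) and 6.40-fold against OEC Lp (limma adjusted p = 0.0361). Cd82 fell 3.46-fold in TEG3 against OEC Ep (limma adjusted p = 0.0375). Of the 15 membrane partners and other matrix receptors on both types, 0 were higher in any comparison, and 1 was lower in OEC Lp against OEC Ep. In TEG3, 2 were lower relative to OEC Ep and 1 relative to OEC Lp. Of all genes, 4.03%, 3.84% and 1.12% were called lower in these comparisons, in this order, and 2.11%, 0.671% and 0.192% higher.

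**Figure D4:**
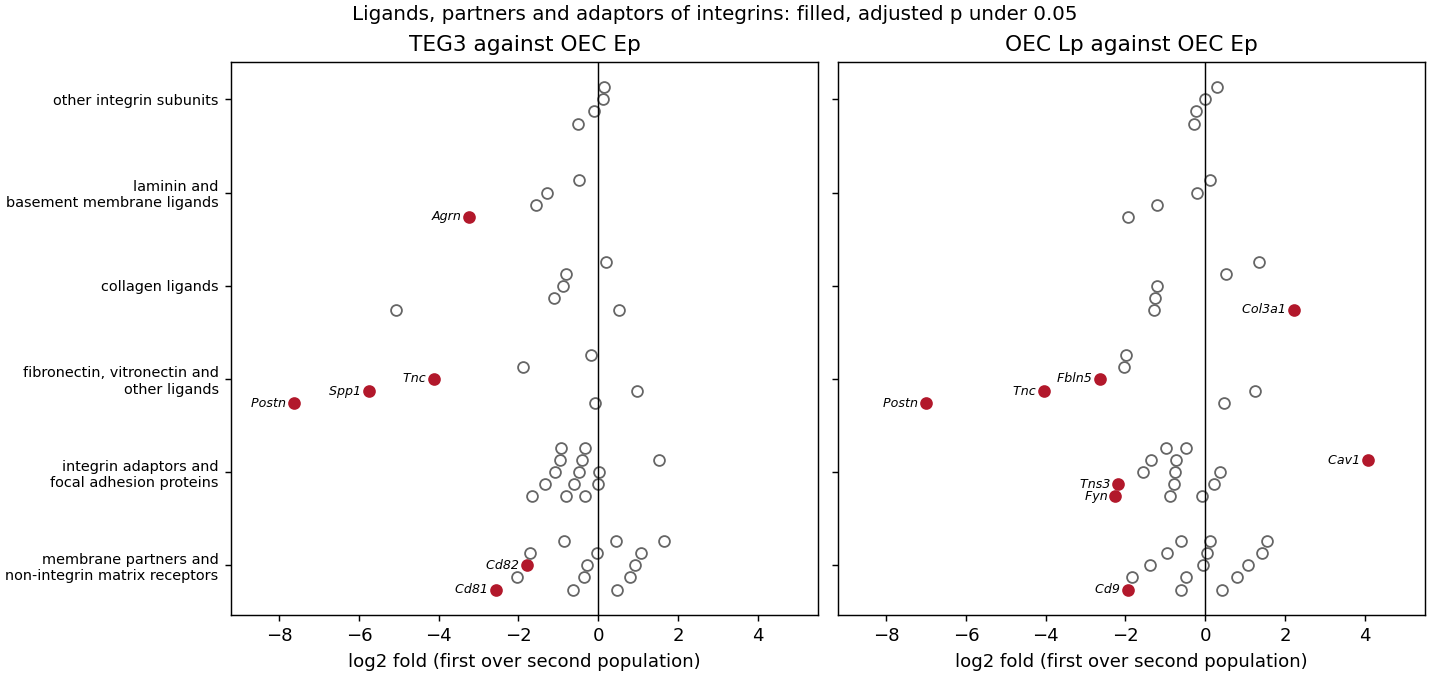
log2 fold of the ligands, partners and adaptors on both array types in TEG3 against OEC Ep (left) and OEC Lp against OEC Ep (right), 1 point per gene. Filled points were called by limma at an adjusted p under 0.05 and carry their names. The called points lie left of 0 in TEG3, and in OEC Lp all but Col3a1 and Cav1 do.

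Across all 50 pathway genes on both types, 2 were called higher and 6 lower in OEC Lp relative to OEC Ep, with a median log2 fold of -0.55, beside 2.11% of all genes higher, 4.03% lower and a median of 0.11. In TEG3 against OEC Ep 0 were higher and 6 lower, with a median of -0.50, beside 0.671%, 3.84% and 0.04 over all genes. Relative to OEC Lp 0 were higher and 1 lower in TEG3, with a median of -0.12, beside 0.192%, 1.12% and -0.01 over all genes. Without any 1 of the 6 arrays, 0 to 3 of these genes were called in the first comparison and 0 in the others, with 0 to 38 of all genes in the first and 0 in the others. Among the 44 pathway genes on RAE2.0 only, 21 were at least 2-fold lower and 4 higher in OEC Lp relative to OEC Ep, beside 9.52% and 10.1% of all such genes. In TEG3 relative to OEC Ep 21 were lower and 1 higher, beside 9.34% and 12.6%. Genes above the floor in OEC Ep alone, such as Itgam and Itgax, entered these counts through OEC Ep. Their direction was fixed by the filter and the floor, which also applied to all such genes.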

How the data were processed

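Total RNA of TEG3, OEC Lp and OEC Ep was measured on 3 U34A and 3 RAE2.0 Affymetrix arrays. The deposited intensity values are on a linear scale and come from MAS5, per the submitters' processing notes. The design text mentions that Microarray Suite 5.0 filtered inaccurate probe sets, with no setting stated. The tables hold no detection calls, and every probe set of an array is listed, so the number of arrays limits the precision. Each array was scaled to the mean 2% trimmed mean of its type, signals under the 40th percentile were set to that floor, and log2 was taken. Control probe sets (59 on U34A and 57 on RAE2.0) were left out. Probe sets above the floor on at least 1 array and with a single symbol in the platform annotation (7006 and 20826) were averaged per gene. Those with several (308 and 436) or no symbol (1426 and 9780) were not used.

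A linear model with terms for population and array type was applied to the 3129 genes on both types (limma 3.58.1, R 4.3.3), with Benjamini-Hochberg adjustment over all of them and a threshold of 0.05. Array type is also the replicate number in accession order, so it is the replicate block. It is a difference in platform and not a pairing of samples. The residual, with 2 degrees of freedom and 3.64 prior ones, is the disagreement of the types on the population differences. The 8413 genes on RAE2.0 only were not tested and are described by 2-fold differences. The procedure was tested on simulated data. The members, lists and comparisons were chosen with earlier results of these data known. Named genes are all members, the pathway genes called or among the lowest 4 p-values per list, and the 3 genes nearest each called member. The RAE2.0-only pathway genes in the text (Itgb2, Itgal, Itgam, Itgax, Itgad, Itga11, Lama5 and Lama2), Cd151 and Cd63 fall outside this rule and were chosen after their values were seen. Alternatives were other scalings, floors, filters and summaries, fewer arrays, no array type term and each array left out. Promoter sequences are from RefSeq (GRCr8).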

Additional observations from a re-analysis of the deposited data

How the results depend on the processing

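The integrin members called were 3 in OEC Lp relative to OEC Ep, 2 in TEG3 relative to OEC Ep and 1 in TEG3 relative to OEC Lp, and the other pathway genes 8, 6 and 1 in this order. Without scaling and with quantile normalization within a type, these counts stayed within 1.5 times. Without the filter on dim probe sets, limma called 0 members and 0 pathway genes in each comparison, and 1, 1 and 0 of all genes. With no replicate block, that is with no array type term, it also called 0 of both and 0 of all genes in each comparison, as the difference in level between the types then enters the residual. With only the 4 arrays compared, the members were 1, 0 and 0, the pathway genes 3, 0 and 0 and all genes 38, 0 and 0. Without a floor, members numbered 2, 0 and 0, pathway genes 2, 2 and 0 and all genes 68, 11 and 0. Itgb4, the member that rose in OEC Lp, then lost its call (log2 fold 3.64, limma adjusted p = 0.161). With a floor at the 25th percentile, 1 and 0 members were called in the TEG3 comparisons. In this setting 5 pathway genes were called in OEC Lp against OEC Ep and 0 in TEG3 relative to OEC Lp. All genes called were then 168, 109 and 4. With probe sets above the floor on all arrays, Itgb4 and Itgb3 were not tested. There 0 members, 2 pathway genes and 40 of all genes were called in TEG3 against OEC Lp. With the brightest probe set, 1 member and 164 of all genes were called in TEG3 against OEC Ep. Leaving out each array in turn gave 0 to 1 members in OEC Lp against OEC Ep and 0 in the others, and 0 to 3 pathway genes in the first and 0 in the others. Where 0 were called, 1 to 4 members and 2 to 19 pathway genes had an unadjusted p under 0.05. In the main fit, 615, 681 and 482 of all 3129 genes had a limma unadjusted p under 0.05, in the order of comparisons above. Such counts over all genes were not made for the alternatives. The cause of these changes was not tested except where stated.

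The signs of Itga1, Itga7 and Itgb4 did not turn under any of these alternatives. When an array was left out, the log2 fold of Itgav ran from -0.87 to 0.69 in OEC Lp against OEC Ep and from -1.49 to 0.07 in TEG3 against OEC Ep. That of Itgb1 ran from -0.98 to 0.03, from -0.74 to 0.16 and, in TEG3 against OEC Lp, from -0.32 to 0.69, and that of Itgb3 in TEG3 against OEC Lp from -0.96 to 0.23. With 1 array per population and type and no detection calls, values near the floor have no order.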
